A study of Mus musculus with 6 samples.

Results

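The cells described here are the 257 DES cells that the depositors' joint clustering of CO and DES epithelial cells placed in cluster 11, which carries the expression signature of basal cells. They were chosen by that cluster number alone, among DES cells that also have a column of counts, and they are 257 of 48699 cells with counts in all. No CO cell had this cluster number. They made up 4.89% of the 5255 DES epithelial cells (95% interval, Clopper-Pearson, 4.32 to 5.51) and 1.58% of the 16312 DES cells. They are set beside the 351 DES cells of cluster 8, the other basal cluster of the same clustering, and beside 4603 non-basal DES epithelial cells.

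Basal cells are the layer of a stratified or pseudostratified epithelium that sits on the basement membrane, to which they are fixed by hemidesmosomes. They are marked by the keratins Krt5 and Krt14 and by the transcription factor Trp63, which is needed to form and keep stratified epithelia. The adult mouse uterus is normally lined by a simple columnar epithelium without such a layer, whereas the vagina has one. Diethylstilbestrol (DES) is a synthetic estrogen, and exposure of newborn mice to it is a long-used model of lasting damage to the female reproductive tract.

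All animals were female CD-1 mice, an outbred stock, injected under the skin each day from day 1 to day 5 of life and killed at 12 months. The CO group received corn oil, and the DES group received 1 mg/kg of DES per day. CO mice were in estrus, whereas DES mice were in persistent estrus. For single cells, the tissue of 2 CO animals and that of 4 DES animals was pooled into 1 library per group, so cells cannot be assigned to a mouse and all values between clusters are from a single DES library. Frozen uterine sections from other mice, 2 CO (A and B) and 2 DES (A and B) with 1 mouse each, were read on Visium slides, on which every spot covers a small area with several cells. By the study's account a pathologist examined tissue sections first, the DES ones for uterine adenocarcinoma, and blocks were cored to areas of interest. Section values of DES against CO thus compare tissue chosen in this way, and the part of adenocarcinoma in them was not tested. Section CO B had a tissue fold.

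The median cell of cluster 11 held 11086 unique molecular identifiers (UMIs, counts of captured transcripts) from 3258 genes, against 17129 UMIs in cluster 8 and 24661 in non-basal cells. The median mitochondrial share was 6.56%, 6.54% and 11.6%, respectively. In all, 180 barcodes occurred in both libraries, 2 of them in cluster 11. Levels below are UMIs of a gene summed over the cells of a group, scaled to the usual CPM (counts per 1000000), from totals of 4041000 UMIs in cluster 11, 6748008 in cluster 8 and 163917631 in non-basal cells. Intervals beside them are 95% Poisson or binomial intervals and cover counting error only, and shares of cells with a UMI are given as counted or, where said, after each cell was thinned to 3000 UMIs. With 1 library no difference between clusters could be tested, and because the clusters were drawn from these same counts, folds between them are descriptions.

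The label was compared with its markers first. The study's own cut for a basal cell asks for over 1 UMI each of Krt14 and Trp63. It was met by 209 of 257 cells of cluster 11 (81.3%, 76.0 to 85.9), 263 of 351 cells of cluster 8 (74.9%, 70.1 to 79.4) and 3 of 4603 non-basal cells (0.0652%). The study took DES cells over this cut out before the separate clustering from which the non-basal group was drawn, so the low share there, and the folds of Krt14 and Trp63 against it, reflect that step at least in part. The cut in UMIs does not fully account for who was taken out: only 1 cell of cluster 11 and 4 of cluster 8 were kept in that clustering, fewer than missed the cut. Among CO epithelial cells it was met by 0 of 2583, with an upper limit of 0.143%. Every cell of cluster 11 held more than 1 UMI of Krt14, so the cells that missed the cut missed it on Trp63. With 1 UMI of each gene as the cut and all cells thinned to 3000 UMIs, 53.3% of cluster 11 met it. The study named the clusters from Krt14 and Trp63 in these same counts, so these shares describe the cells and are no independent check of the label.

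Krt14, the type I keratin of the basal layer, reached 3047 CPM in cluster 11 (2994 to 3102), 3858 CPM in cluster 8, 7.73 CPM in non-basal DES cells and 0.838 CPM in CO epithelial cells. Its partner Krt5 stood at 1611, 1808, 75.7 and 0.305 CPM in the same order. Trp63 stood at 302, 203, 0.616 and 0.0761 CPM. Both basal clusters were thus far above both non-basal groups for each of these genes, but not in the same order, since cluster 11 had the lower Krt14 and the higher Trp63. Its Trp63 level was 1.49 times that of cluster 8 (1.38 to 1.61), while its Krt14 level was 0.790 times (0.773 to 0.807). The stem-cell-associated keratin Krt15 (2355 against 2882 CPM) and the stress-inducible keratin Krt17 (681 against 1102 CPM) were also lower in cluster 11, Krt17 by the wider margin at 0.618 times.

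**Figure D1:**
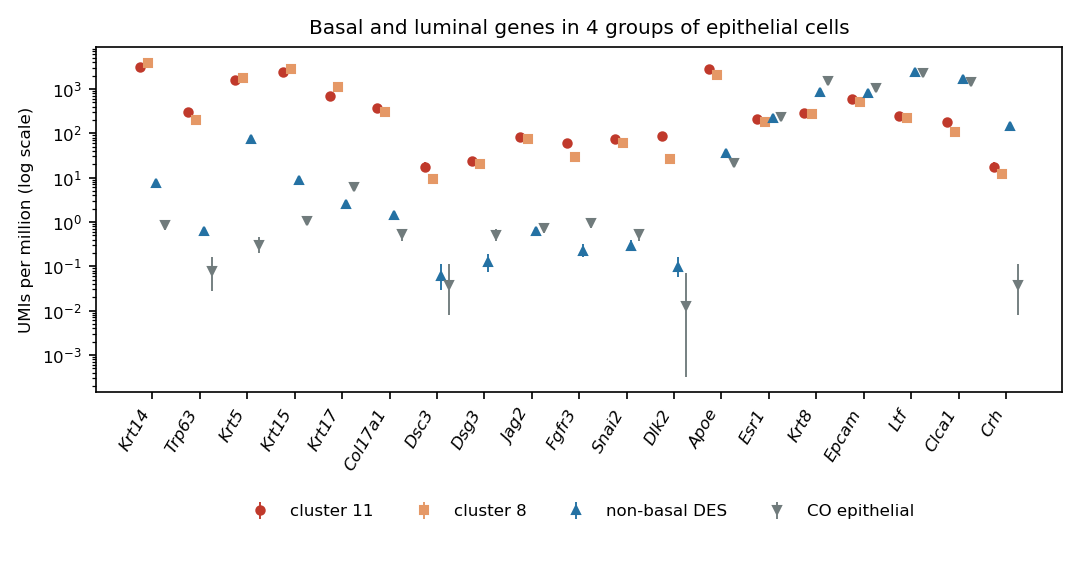
Level of basal, luminal and other named genes (horizontal axis) in cluster 11, cluster 8, non-basal DES and CO epithelial cells, in CPM of summed UMIs on a log axis, with bars for the 95% Poisson interval (counting error only, 1 library per group). In these pooled levels the basal keratins and Trp63 separate both basal clusters from both other groups, for example 3047 and 3858 against 7.73 and 0.838 CPM for Krt14, while Epcam and Esr1 lie much closer together.

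Against non-basal DES cells, cluster 11 had higher levels of most counted hemidesmosome and desmosome genes and lower levels of most simple-epithelium, tight-junction and gland genes. Of 8772 genes with at least 10 CPM in either group, 875 (9.97%) were at least 2-fold higher in cluster 11 and 753 (8.58%) at least 2-fold lower. The median ratio over all of them was 1.02. All counts of list members in this comparison are read beside those percentages, and only members with at least 10 CPM in either group are counted.

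The genes that tie a basal cell to the basement membrane leaned one way. Of 20 counted genes for hemidesmosomes, integrins and basement membrane, 15 were at least 2-fold higher in cluster 11 and none lower, with a median ratio of 2.68. Col17a1, the transmembrane collagen of the hemidesmosome, stood at 374 CPM (355 to 393) against 1.45 CPM, a ratio of 259 (225 to 298). Itgb4, the integrin chain of the same structure, stood at 181 against 34.97 CPM, and Col7a1, which forms the anchoring fibrils below it, at 67.1 against 0.537 CPM. The ratios differed widely between these members, but the direction did not. Desmosome genes, whose products join neighbouring cells, were higher in 6 of 10 and lower in 1, Pkp2. The stratified-epithelium cadherins Dsg3 (23.3 against 0.122 CPM) and Dsc3 (17.3 against 0.0610 CPM) were low in absolute terms but close to absent from non-basal cells.

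Transcription factors were more mixed, with 9 of 21 at least 2-fold higher and 3 lower. Trp63 itself was 490.4 times higher (400.1 to 607), against a group drawn after cells with Trp63 and Krt14 had been taken out. Its relative Trp73 stood at 17.8 against 0.0976 CPM, Tfap2a, a factor of surface ectoderm, at 24.99 against 0.348 CPM, and Sox15 at 21.5 against 0.0549 CPM. Non-basal cells held very few UMIs of each of these factors. Snai2, a zinc-finger repressor of epithelial genes, stood at 72.5 against 0.293 CPM, and the homeobox factor Prrx1 at 121 against 0.488 CPM. Msx1, Msx2 and Barx2, homeobox genes expressed in uterine epithelium, were the members that were lower, with Msx1 at 11.9 against 52.5 CPM.

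Signalling genes included several ligands and receptors that were close to absent from non-basal cells. Among Notch genes 4 of 7 were at least 2-fold higher and none lower. They were the ligands Jag1 (48.5 against 22.5 CPM), Jag2 (81.7 against 0.628) and Dll1 (28.5 against 0.104), and Lfng, which modifies the receptors. Dlk2, a membrane protein related to the Notch ligands, had the highest ratio of all genes with at least 50 CPM, at 85.1 CPM against 0.0976 CPM. That ratio of 872 (529 to 1543) rests on 16 UMIs in the non-basal cells. It left this interval, in both directions, under other choices of cells given with the processing below. Among Wnt genes 7 of 14 were higher and 3 lower: Wnt10a (14.8 against 0.0244 CPM), the receptor Lgr6 (17.6 against 0.262) and Dkk3 (154 against 4.35) were among the higher, and Wnt7a, the ligand of the luminal uterine epithelium (13.6 against 62.6), was among the lower.

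Growth factor genes and receptors were at least 2-fold higher in 13 of 24 and lower in 2. The receptors Fgfr3 (59.6 against 0.226 CPM), Egfr (64.8 against 11.1) and Ngfr (74.98 against 0.817) were higher, while Erbb3 (24.7 against 51.3) was lower. Of secreted factors, Tgfb2 stood at 95.3 against 3.55 CPM and the insulin-like growth factor binding protein Igfbp2 at 265 against 5.32 CPM. The EGF-family ligand Btc was the other lower member. Il33, an alarm cytokine kept in the nucleus of barrier epithelia, stood at 544 against 118 CPM. The lipid carrier Apoe stood at 2811 against 36.5 CPM, and Sfn, a 14-3-3 protein of stratified epithelia, at 1070.0 against 97.5 CPM.

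Simple-epithelium genes were mostly lower. Krt8 was at 288 CPM in cluster 11 and 867 CPM in non-basal cells, Cldn3 at 59.1 against 365 CPM and Epcam at 581 against 806 CPM. Of 12 such genes 7 were at least 2-fold lower, and 1, Krt7, was higher (719 against 330.2 CPM). Tight-junction genes were lower in 7 of 10 and higher in none. Gland genes were lower in 4 of 5, among them Foxa2, the factor of uterine glands, at 2.97 against 16.2 CPM. Among the genes with the lowest ratios were complement factor I (Cfi, 4.95 against 77.04 CPM), lactoferrin (Ltf, 241 against 2353), Clca1 (180.2 against 1705), the stress hormone Crh (17.6 against 143), the chromatin protein gene Hmga2 (11.6 against 97.5) and the kinase gene Cdkl1 (20.8 against 172).

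Ltf is induced by estrogen in uterine epithelium, and 4 of 10 hormone receptor and estrogen-responsive genes were at least 2-fold lower in cluster 11 (Ltf, Lcn2, C3 and Muc1) against 2 higher (Nr3c1 and Greb1). The receptor genes Esr1 and Pgr differed less, unlike the receptor gene Nr3c1. The estrogen receptor gene Esr1 was at 208 CPM in cluster 11, 184 in cluster 8 and 217 in non-basal cells, and the progesterone receptor gene Pgr at 74.5, 53.9 and 96.6 CPM. Lcn2 and C3, like Ltf, code for secreted proteins.

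Genes of stratified and squamous epithelium were uneven. Of the 19 genes on that list 6 reached 10 CPM in cluster 11 or non-basal cells, and 5 were at least 2-fold higher in cluster 11: Ly6d (1596 against 7.19 CPM), Sprr1a (651 against 51.9), Anxa8, Calml3 and Krt13. Sprr1a, a precursor of the cornified envelope, had a UMI in 184 of the 257 cells. After thinning its share was 54.5% in cluster 11, 49.7% in cluster 8, 10.1% in non-basal cells and 0.767% in DES mesothelial cells. It was also common in the simple epithelium of CO mice, at 377 CPM and a share of 39.2%. For Krt13 the thinned share was 12.9% in cluster 11, 4.92% in non-basal, 0.238% in mesothelial and 4.29% in CO epithelial cells. The median mesothelial cell held 12329 UMIs, and free RNA was not estimated. Krt13, the keratin of moist stratified linings, was at 67.1 CPM in cluster 11 and 63.7 in cluster 8. The cornification gene Lor was at 1.48 CPM, the suprabasal keratins Krt1 and Krt4 were at 4.21 and 0.495 CPM, and Sprr1b, Sprr3 and Dsg1a had no UMI.

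Markers of other cell types were counted as a check. Of 10 stromal markers 3 (Dpt, Pdgfra and Foxl2) were at 0. Of the 4 that were counted against non-basal cells, 2 were at least 2-fold higher in cluster 11 and 0 lower, with a median ratio of 1.95. The list summed to 246 CPM in cluster 11, 182 in cluster 8, 131 in non-basal cells and 25422 in DES mesothelial cells. The list of smooth muscle and myoepithelial genes summed to 52.5 CPM in cluster 11 and 51.6 in cluster 8, with 5 of 10 genes at 0 in cluster 11. Mesothelial markers summed to 55.9 CPM against 3684 in mesothelial cells, and leukocyte markers to 51.2 CPM, of which 5 of 12 genes were at 0. Mesenchymal genes that epithelia can also make were higher than in non-basal cells in 8 of 10 and lower in 1, Postn. They included the placental cadherin Cdh3 (55.9 against 1.18 CPM) and the matrix protein Sparc (229 against 16.3 CPM).

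Cluster 11 and cluster 8 shared this basal program and differed in fewer genes. Of 8453 genes with at least 10 CPM in either cluster, 112 (1.32%) were at least 2-fold higher in cluster 11 and 216 (2.56%) at least 2-fold lower, and the median ratio was 1.10. No hemidesmosome, desmosome, tight-junction or hormone gene that was counted differed by 2-fold in either direction. The groups that did differ were the immediate early genes, the mitotic genes, a few chemokines and a few regulators.

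Immediate early genes are switched on within minutes by growth factors, injury or stress and do not need new protein synthesis. The list used here also holds heat shock genes. All 17 of its 17 members were at least 2-fold lower in cluster 11 than in cluster 8, with a median ratio of 0.0865, and the list summed to 2296 CPM against 21474 CPM. Atf3, a stress-induced transcription factor, was at 35.4 CPM (29.8 to 41.7) against 1979 CPM (1946 to 2013), 47.4 to 66.4-fold apart by the counting interval. Fos, a subunit of the AP-1 factor, was at 123 against 2814 CPM, and its partner Jun at 319 against 3648 CPM. Egr1, a zinc-finger factor of the same early wave, was at 33.2 against 970.2 CPM, and the heat shock gene Hspa1a at 143 against 478 CPM. Every member had the same direction, and the smallest gap among the 4 factors was that of Jun, 11.4-fold.

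The promoters of Atf3, which had the lowest ratio of the list, and of Fos, its best known member, are shown for the regulatory letters near their starts. Each line is the 250 bases upstream of the RefSeq start on GRCm38.p6, read 5′ to 3′ along the gene, at chr12:85473640-85473889 on the plus strand for Fos and chr1:191183334-191183583 on the minus strand for Atf3. The Atf3 window lies inside the longest Atf3 model of GENCODE M21 (chromosome 1, 191170296 to 191218039), since the RefSeq start is an inner one. Capitals mark TGACGT, the core of the cyclic AMP response element, on either strand, and the TATA motif TATAAA.
Fos: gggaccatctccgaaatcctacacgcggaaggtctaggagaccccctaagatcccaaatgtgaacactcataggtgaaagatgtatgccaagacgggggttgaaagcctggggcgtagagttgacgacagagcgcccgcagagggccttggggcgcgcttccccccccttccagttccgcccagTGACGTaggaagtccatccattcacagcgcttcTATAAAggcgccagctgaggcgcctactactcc
Atf3: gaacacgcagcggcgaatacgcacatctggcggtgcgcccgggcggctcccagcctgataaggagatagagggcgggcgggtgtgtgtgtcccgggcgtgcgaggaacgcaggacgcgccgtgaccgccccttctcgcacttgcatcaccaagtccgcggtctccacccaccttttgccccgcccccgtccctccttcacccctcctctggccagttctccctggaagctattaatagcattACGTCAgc

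In Fos the core lies on the sense strand upstream of the TATA motif, and in Atf3 it lies on the antisense strand close to the start. Counted over both strands of the same 250 bases, the core was present in 3 of 15 list promoters that could be read (20%), against 7.29% of 27025 promoters. The full element TGACGTCA, which contains the core, was in 1 of the 15 (6.67%) against 1.77% of all, and the AP-1 element TGANTCA in 0 of 15 against 7.82%. The CArG box was in 1 of 15 against 1.62%, and TATAAA in 1 of 15 against 14.3%. These matches describe letters in a window and not binding.

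The early genes were also described cell by cell. Cells of clusters 11 and 8 came from the same library, and the clusters were drawn from these same counts. A separation of their cells on these genes can thus follow from the clustering, and is no independent check. The summed share of the list was computed in each cell as UMIs per 10000. In cluster 11 it had a median of 16.7, with the central 90% of cells between 7.90 and 88.0, and in cluster 8 a median of 215, with 94.1 to 343. No cell of cluster 11 reached the median of cluster 8, 11 of 257 lay above its 5th percentile, and 15 of 351 cells of cluster 8 lay below the 95th percentile of cluster 11. Non-basal DES cells had a median of 12.7 and CO epithelial cells of 37.8. The median of cluster 11 was thus much closer to that of non-basal DES cells than to that of cluster 8, although its 95th percentile of 88.0 lay above their 55.1.

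**Figure D2:**
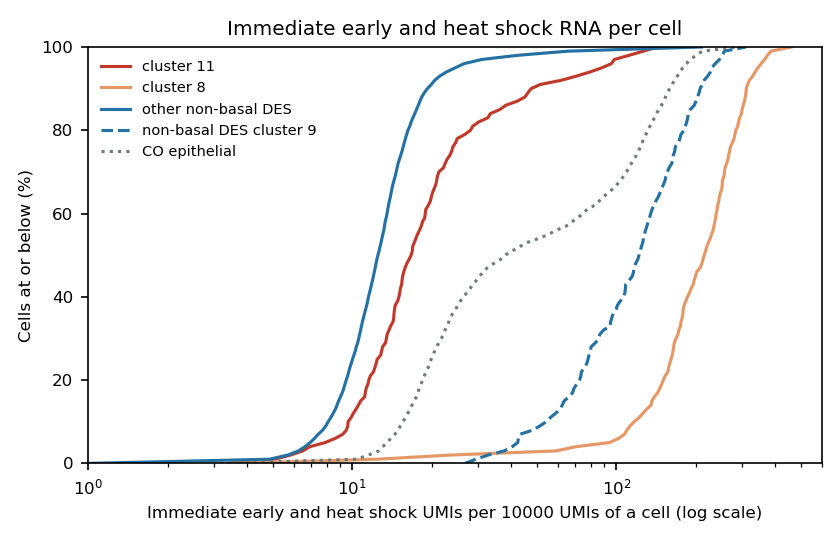
Summed UMIs of 17 immediate early and heat shock genes per 10000 UMIs of a cell (horizontal log axis) against the percentage of cells at or below that value (vertical axis), for cluster 11, cluster 8, non-basal DES cluster 9, other non-basal DES and CO epithelial cells. The lines of cluster 11 and cluster 8 stand apart over most of their range, with medians of 16.7 and 215, and the non-basal DES cluster 9 lies nearer to cluster 8 with a median of 122.

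Among the non-basal DES clusters, 1 was also elevated. The 187 non-basal cells of cluster 9 in the depositors' separate DES clustering had a median of 122 UMIs per 10000, whereas the medians of the other clusters ran from 10.2 to 14.2. High values were not confined to clusters 8 and 9. The median was 133 in DES cells annotated as myeloid, and the 75th percentile of CO epithelial cells was 121. In cluster 9 against the other non-basal cells, 16 of the 17 early genes were at least 2-fold higher, with a median ratio of 12.7, where 2.26% of all genes were. In cluster 8 against cluster 11 it was 17 of 17 with a median ratio of 11.6. Atf3 was 57.6 times higher in the first comparison and 55.9 times in the second, and Fos 37.3 and 22.9 times. Cluster 11 itself was above the non-basal cells outside cluster 9 for several members, with Atf3 at 35.4 against 7.03 CPM, Jun at 319 against 110.5 CPM and Hspa1a at 143 against 18.5 CPM. Klf4 went the other way, at 185 against 353 CPM, and Ier3 was close, at 60.9 against 54.2 CPM. Cluster 9 was set aside here for its high early genes, so a lead over the rest is in part fixed by that choice. Against all non-basal cells, 2 of the 17 members were at least 2-fold higher in cluster 11 and 1 lower, with a median ratio of 1.15. Over all genes these shares were 9.97% and 8.58%.

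The cells of the library were freed with trypsin in steps on ice, at room temperature and at 37°C, whereas the sections were cut from frozen tissue. In spots of the sections that held UMIs of both Krt14 and Trp63, the early list summed to 1892 CPM in DES A (425 spots) and 1697 CPM in DES B (379 spots), against 1551 and 1534 CPM in the other spots of those sections. These sums lie below the 2296 CPM of cluster 11 and the 21474 CPM of cluster 8, although spots mix cell types and the assays capture transcripts differently. In the same spots of DES A and DES B, Fos was at 19.02 and 18.1 CPM, Jun at 95.6 and 63.9 CPM and Atf3 at 14.6 and 12.95 CPM, each below its level in cluster 11 (123, 319 and 35.4 CPM) as well as in cluster 8. In the other spots of DES A and DES B, Fos was at 20.6 and 15.8 CPM, Jun at 98.6 and 69.2 CPM and Atf3 at 12.3 and 18.3 CPM. These genes thus did not all follow the list sum. The part of dissociation in the early gene levels of the cells was not tested. Relative to Trp63, Atf3 had 0.177 and 0.248 UMIs per Trp63 UMI in whole sections DES A and DES B, 0.117 in cluster 11 and 9.77 in cluster 8. Per 100 Krt14 UMIs it had 0.321, 0.782, 1.16 and 51.3 in the same order. Atf3 itself stood at 15.3 and 16.04 CPM in the CO sections and 13.4 and 15.8 CPM in the DES sections, with a DES over CO log2 fold of -0.31 (SE 0.21, adjusted p = 0.453), in edgeR's quasi-likelihood test over all genes.

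A few cytokine and chemokine genes were lower too. Of 12 counted, 4 (Cxcl1, Cxcl2, Ccl20 and Il1b) were at least 2-fold lower in cluster 11 than in cluster 8 and none higher, while Cxcl14 stood at 21.8 against 17.3 CPM. The neutrophil attractants Cxcl1 and Cxcl2 were at 3.46 against 243 CPM and 1.24 against 127 CPM, and Ccl20 at 0 against 21.6 CPM. The chemokine gene Cxcl10, which is not on the list, was at 2.23 against 110.6 CPM. Hes1, the transcriptional target of Notch signalling, was the single Notch gene that differed, at 150.5 against 1777 CPM, while the ligand genes Jag2 (81.7 against 75.4) and Dll1 (28.5 against 33.2) did not reach 2-fold. Hes1 is itself quick to respond and short-lived. The list of cell cycle inhibitors and p53 targets, which also holds the cyclin genes Ccnd1 and Ccnd2, was lower in 5 of 12. Among the lower members were Cdkn1a (13.9 against 61.5 CPM) and Gadd45a (36.1 against 123). Against non-basal cells the same list of inhibitors and p53 targets was at least 2-fold higher in 7 of 12 and lower in 2, with Cdkn2a, the locus of p16 and Arf, at 72.3 against 22.8 CPM. Id1 and Id3, targets of BMP signalling, were lower in cluster 11 than in cluster 8, at 189.8 against 591 and 165 against 414 CPM.

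Mitotic genes were also lower in cluster 11. Of 13 G2/M genes 12 were at least 2-fold lower than in cluster 8, with a median ratio of 0.0879, for example Top2a (2.23 against 28.7 CPM), Ube2c (4.95 against 62.8) and Mki67 (1.24 against 15.7). This came from few cells, since the median cell had 1.65 UMIs of the list per 10000 in either cluster, and the 95th percentiles were 4.65 and 8.54. After thinning, a UMI of Mki67 or Top2a was found in 3 of 255 cells of cluster 11 (1.18%, 0.243 to 3.40), 13 of 350 of cluster 8 (3.71%, 1.99 to 6.27), 6.02% of non-basal DES cells and 6.95% of CO epithelial cells. The intervals of both basal clusters overlap, whereas the share in cluster 11 lies below both non-basal groups. Genes of S phase differed less, with 1 of 10, Rrm2, at least 2-fold lower than in cluster 8.

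**Figure D3:**
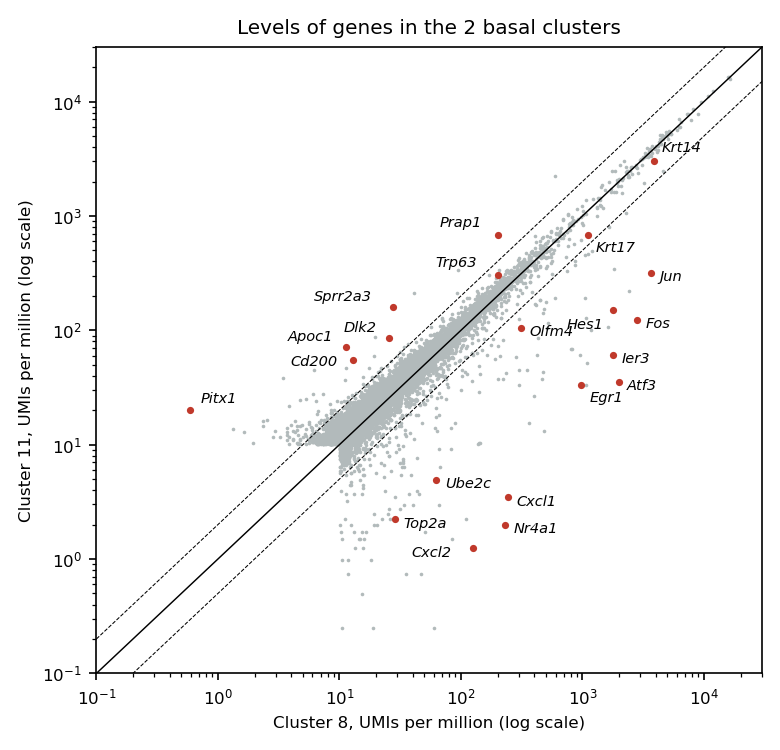
Each point is a gene with at least 10 CPM in either cluster, with its level in cluster 8 on the horizontal and in cluster 11 on the vertical axis, both in CPM of summed UMIs on log axes, from 1 DES library; the solid line marks equality, the dashed lines 2-fold, and genes at 0 in a cluster are not drawn. Atf3 and Fos lie far below the diagonal, Krt14 and Trp63 close to it, and Pitx1, Apoc1, Cd200 and Dlk2 above it.

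Few genes were higher in cluster 11 than in cluster 8, and only Apoc1 and Cd200 had at least 50 CPM there together with a 4-fold lead over both cluster 8 and non-basal cells. Apoc1, an apolipoprotein gene next to Apoe on chromosome 7, was at 71.3 CPM (63.3 to 79.99) against 11.3 and 0.927 CPM. Cd200, a surface glycoprotein found on some stem-like epithelial cells, was at 55.2 CPM (48.2 to 62.9) against 12.9 and 6.29 CPM. DES mesothelial cells held more of it, at 149 CPM, with a UMI in 33.5% of thinned cells against 13.3% in cluster 11. Dlk2 was at 85.1 against 25.6 CPM in cluster 8, 3.32 times (2.76 to 4.01), and Fgfr3 at 59.6 against 29.6 CPM. Unlike Apoc1, which had UMIs in 42 cells, Dlk2 was spread over many cells, with a UMI in 21.96% of thinned cluster 11 cells and 6.57% of those of cluster 8.

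Pitx1, a homeobox factor of hindlimb and pituitary development, had the steepest lead at a lower level. It was at 20.3 CPM (16.1 to 25.2) in cluster 11, 0.593 in cluster 8, 0.146 in non-basal DES cells and 0 in CO epithelial cells. The ratio to cluster 8, 34.2 (12.9 to 129), rests on 82 UMIs against 4. Before thinning, at least 1 UMI was found in 44 of 257 cells of cluster 11 (17.1%, 12.7 to 22.3), in 4 of 351 of cluster 8 and in 20 of 4603 non-basal cells (0.434%), although the cells of the latter groups were sequenced to more UMIs. Pitx1 lies on chromosome 13 (55825051 to 55836192, minus strand, mm10).

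The 44 cells with Pitx1 also differed from the other 213 in other genes. The split was made after the values were seen, cells without a UMI may still express the gene, and the values are a description. Both sets had a like depth, with medians of 10623.5 and 11187 UMIs. Cd200 stood at 171 CPM in cells with Pitx1 and 29.1 in those without (5.89 times, 4.48 to 7.76), and Apoc1 at 213 against 39.4 CPM. Id4, a helix-loop-helix inhibitor, was at 213 against 50.3 CPM, and Glul, the glutamine synthetase gene, at 313 against 113 CPM with a UMI in 43 of the 44 cells. Cd200 had a UMI in 38 of the 44 cells with Pitx1, but Apoc1 in only 13 of them, with 70.3% of its UMIs there in 5 cells. Without these 44 cells the ratio of cluster 11 to cluster 8 was 3.50 for Apoc1 and 2.26 for Cd200. In the whole of cluster 11, 5 cells held 39.2% of the Apoc1 UMIs.

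Other genes were lower in the cells with Pitx1. The protease inhibitor gene Serpinb7 was at 20.2 against 202 CPM, Serpinb11 at 28.3 against 233, Olfm4 at 9.44 against 126 and Igfbp2 at 56.7 against 311. Cyr61 and Ctgf, matricellular genes that respond to the mechanosensing factor YAP, stood at 12.1 against 128 and 4.05 against 50.3 CPM. Prap1 stood at 86.3 against 810.3 CPM. In the cluster as a whole 73.8% of the Olfm4 and 84.1% of the Prap1 UMIs lay in 25 cells with more than 3 times the median UMIs, whose part in this difference was not tested. The basal markers varied less: Krt14 at 3196 against 3014, Trp63 at 319.8 against 298 and Krt5 at 1284 against 1685 CPM. The median early gene share was 13.7 UMIs per 10000 in cells with Pitx1 and 17.4 in those without.

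**Figure D4:**
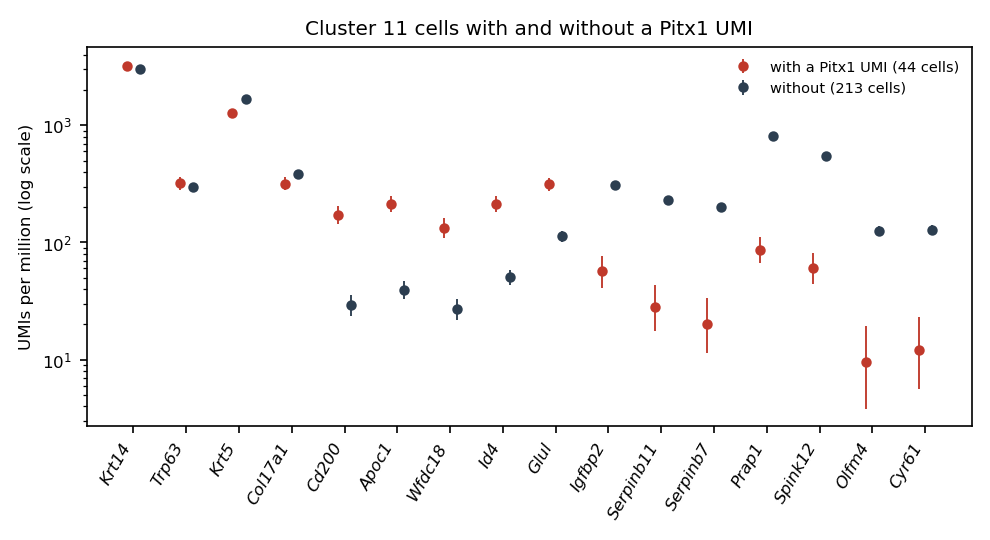
Level of named genes in the 44 cluster 11 cells with a Pitx1 UMI and in the 213 without, in CPM of summed UMIs on a log axis, with bars for the 95% Poisson interval (counting error only). Cd200, Apoc1 and Id4 are higher in cells with Pitx1 and Olfm4, Prap1 and Serpinb7 lower, while Krt14 and Trp63 lie close together.

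By the variance of thinned UMIs over their mean, the gene ranked first between cells of cluster 11 was the nuclear RNA Malat1 (15.7). It was followed by Sprr2f (13.6), a small proline-rich gene, Prap1 (10.3), Sprr2a3 (7.57), Spink12 (6.84), the mitochondrial gene mt-Atp6 (6.57) and Apoe (6.56). This measure can rise with the level of a gene, so the order is not one of relative spread. The thinned mean was 51.7 UMIs for Malat1 and 46.2 for mt-Atp6, against 0.675 for Prap1. Part of the variation between cells lay in 25 cells with more than 33258 UMIs, 3 times the median, which held 29.7% of the UMIs of the cluster. They carried 84.1% of its Prap1, 78.9% of its Spink12 and 73.8% of its Olfm4. Prap1, a secreted protein of uterine epithelium, was at 1921 CPM in those cells and 153 CPM in the other 232, against 2472 CPM in non-basal cells. Their Krt8 was also higher (459 against 216 CPM) and their Krt14 lower (2476 against 3288 CPM), and whether they hold material of more than 1 cell was not tested.

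Leaving out such cells moved Prap1 much further than Krt14. Prap1 was 3.39 times as high in cluster 11 as in cluster 8 over all cells and 0.729 times when cells with Ptprc, a leukocyte gene, or above 3 times the median were left out of both. Krt14 moved from 0.790 to 0.832 times in the same step. Dlk2 was lower in the cells of high UMIs, at 51.7 against 99.2 CPM, and Pitx1 stood at 15.01 against 22.5 CPM, 21.95% of the Pitx1 UMIs being in those 25 cells.

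The sections gave the one measure from separate animals that the clustering did not use. UMIs were summed over all spots of a section, and the 2 DES sections were compared with the 2 CO sections in edgeR (quasi-likelihood F-test), with p-values adjusted over 14098 genes by Benjamini and Hochberg's method. It called 376 genes higher (2.67%) and 371 lower (2.63%) in DES at an adjusted p below 0.05. In whole sections, more cells of a type and more RNA per cell cannot be told apart. An exact test of 2 against 2 cannot go below 0.333, so calls rest on the model's shared spread. Leaving out 1 section moved both counts widely, to 14 and 0 without DES A, 3 and 0 without DES B, 1311 and 1508 without CO A, and 1148 and 1188 without CO B.

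Of the 5 basal markers, all had higher values in both DES sections than in either CO section, and 1 passed the test. Krt17 stood at 7.76 and 8.61 CPM in the CO sections and 86.3 and 83.5 CPM in the DES sections, a log2 fold of 3.17 (SE 0.17, adjusted p = 0.0141). Krt14 stood at 1.68 and 59.7 CPM in the CO sections and 4175 and 2019 CPM in the DES sections, a log2 fold of 6.46 (SE 1.70, adjusted p = 0.104), and Trp63 at 0.880 and 6.53 CPM in the CO sections and 75.7 and 63.6 CPM in the DES sections, a log2 fold of 4.05 (SE 0.81, adjusted p = 0.0617). Krt5 (0.800 and 93.4 against 5276 and 3562 CPM) had an adjusted p of 0.142 and Krt15 (0.720 and 56.6 against 804 and 842 CPM) of 0.181. Lists for other cell types were compared in the same sections, where 2.67% of all genes were called higher and 2.63% lower. Called lower were 8 of 10 smooth muscle and myoepithelial genes (median log2 fold -1.89), 3 of 10 stromal markers (-1.15) and 2 of 7 endothelial and pericyte markers (-1.16). Called higher were 2 of 7 mesothelial markers (2.13) and 1 of 12 leukocyte markers (1.08). Acta2, the smooth muscle actin gene, stood at 4314 and 4323 against 1250.2 and 1441 CPM. The part of this makeup in the section results here and below was not tested. For each of the 4 markers that missed the threshold the CO sections were far apart, CO B being many times higher than CO A, while for Krt17 they were alike. The call of Krt17 was lost when either DES section was left out, with an adjusted p of 0.0515 without DES A and 0.0604 without DES B. Leaving out a CO section removes that spread for those 4 markers, so such a fit cannot decide their calls. The log2 fold of Krt14 was 5.50 without CO A and 10.6 without CO B, and that of Trp63 3.23 and 6.05. DESeq2 called Krt14, Trp63 and Krt5 besides Krt17 (adjusted p = 0.00499, 1.92e-07 and 0.0249). With no filter beyond 1 count, edgeR called Trp63 (adjusted p = 0.0417) besides Krt17, but not Krt14, Krt5 or Krt15.

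Much of the Krt14 and Trp63 of CO B lay in few spots. Krt14 and Trp63 were both detected in 27 of its 1834 spots and in 0 of the 1433 spots of CO A. The 27 spots held 54.8% of the Krt14 and 81.9% of the Trp63 UMIs of CO B. They included 8 of the 17 spots in the depositors' spot cluster 10 of that section and 14 of the 339 in cluster 2. Outside them, CO B still held Krt14 in scattered spots, 111 spots in all having a UMI. Krt17 was placed differently, with 10.5% of its CO B UMIs in the 27 spots. In CO A its highest level, 76.0 CPM, was in spot cluster 4, where Krt14 and Trp63 were at 0. Its level in the CO sections is thus not a measure of cells with Krt14 and Trp63.

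Of the 34 genes with at least 50 CPM in cluster 11 and a 50-fold lead over non-basal DES cells, 11 were higher and 1 lower in DES sections, beside 2.67% and 2.63% of all genes, with a median log2 fold of 3.40 against -0.01 over all genes tested. The higher ones were Krt17, the receptor Fgfr3, with a log2 fold of 3.72 (SE 0.21, adjusted p = 0.0141), the Notch ligand Jag2, at 3.78 (SE 0.34, adjusted p = 0.0206), Apoc1, Anxa8, Dapl1, Fat2, Fmod, Nectin1, Ptges and Vsnl1. Spon2, a secreted matrix protein, fell by 2.07 on the log2 scale (adjusted p = 0.0183). Fgfr3 stood at 2.96 and 3.63 CPM in the CO sections and 52.6 and 47.5 CPM in the DES sections. Its call was likewise lost without DES A (adjusted p = 0.0515) or DES B (0.0604). Col17a1 (0.560 and 9.61 against 243 and 176 CPM, adjusted p = 0.0724), Dlk2 (0.240 and 3.17 against 43.3 and 48.1 CPM, 0.0587) and Ly6d (1.68 and 34.1 against 2334 and 1290.0 CPM, 0.0771) had large folds and missed the threshold. These 3 genes passed in DESeq2 (adjusted p = 0.00882, 0.0129 and 0.00112). With no filter beyond 1 count in edgeR, Dlk2 passed (adjusted p = 0.0384), while Col17a1 (0.0523) and Ly6d (0.0571) missed. The log2 folds of Col17a1, Dlk2 and Ly6d were 4.25, 3.66 and 5.54 without CO A and 8.28, 7.28 and 9.82 without CO B. Among the stratified and squamous genes 5 of 15 were higher (Krt1, Krt6b, Calml3, Sprr1a and Anxa8), beside 2.67% of all genes. Over all genes no more than 14 higher calls were made without DES A and 3 without DES B.

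The genes with a lead over both cell groups were less uniform in the sections. Of 33 genes with at least 10 CPM in cluster 11 and a 2-fold lead over both cluster 8 and non-basal cells, 31 passed the low-count filter, 4 were higher (Apoc1, Fgfr3, Ly6k and Pitx1) and 1 lower (Bnip3), beside 2.67% and 2.63% of all genes, with a median log2 fold of 0.01. Pitx1 stood at 0.0800 and 1.18 CPM in the CO sections and 47.4 and 18.9 CPM in the DES sections, a log2 fold of 5.53 (SE 0.94, adjusted p = 0.0446), and Apoc1 at 2.08 and 5.44 CPM in the CO sections and 60.4 and 30.8 CPM in the DES sections, a log2 fold of 3.40 (SE 0.56, adjusted p = 0.0418). Both calls were lost when the section letter was entered as a replicate block (adjusted p = 0.061 and 0.060) or when either DES section was left out. Cd200 stood at 26.4 and 32.99 CPM in the CO sections and 58.9 and 55.9 CPM in the DES sections, a log2 fold of 0.74 (SE 0.18, adjusted p = 0.0841). Its log2 fold was 0.61 without CO A and 0.89 without CO B. With all 4 sections kept, Cd200 missed the threshold in each alternative, from an adjusted p of 0.0505 in DESeq2 to 0.142 with the section letter as block. Mesothelial cells, whose markers leaned higher in the DES sections, also hold Cd200 in the library, and their part in its section values was not tested.

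**Figure D5:**
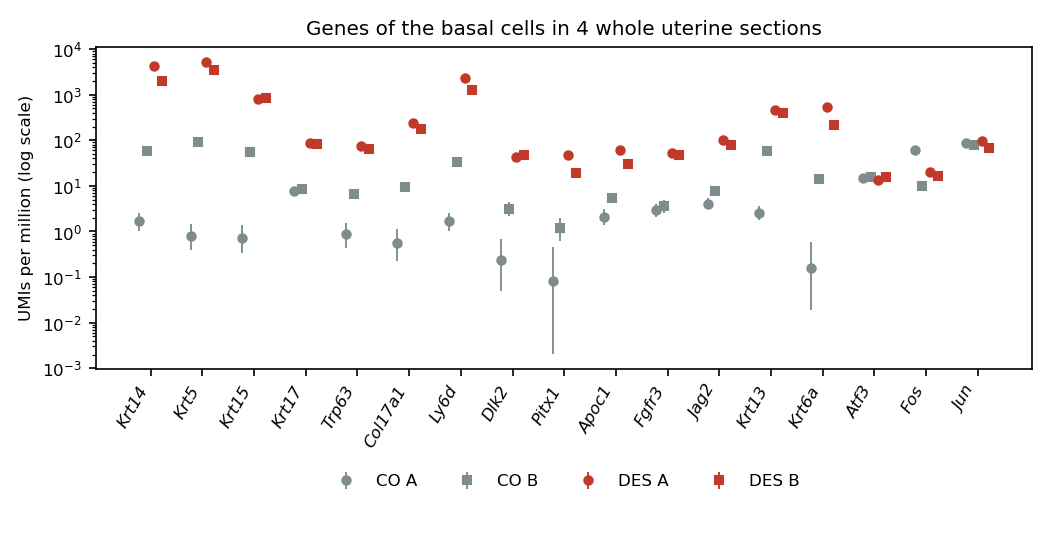
CPM of named genes in each of the 4 Visium sections (CO A, CO B, DES A, DES B), summed over all spots, on a log axis, with 1 point per section and bars for the 95% Poisson interval (counting error only). Both DES points lie above both CO points for the basal markers, Dlk2, Pitx1 and Apoc1, and the CO B point lies well above CO A for Krt14, Krt5 and Krt15, at 1.68 and 59.7 against 4175 and 2019 CPM for Krt14 in CO and DES.

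Within the DES sections the highest levels of Pitx1 and Dlk2 were in different spot clusters, but the clusters overlapped in level and the difference was not tested. By the study's account, section DES B was limited for finding clusters, and its spot cluster values carry that limit. In DES A, Pitx1 was highest in spot clusters 8 (85.3 CPM) and 1 (80.1 CPM), in which Krt6a, a keratin of suprabasal and activated cells, was at 1015 and 1037 CPM. In DES B it was highest in spot cluster 7 (63.4 CPM), with Krt6a at 1026 and Krt13 at 1322 CPM. Dlk2 was instead highest in spot cluster 5 of DES A (60.7 CPM, with Krt6a at 498 and Pitx1 at 54.9 CPM), and was at 50.4 CPM in the Pitx1-high spot cluster 1. In DES B it was highest in spot cluster 6 (91.8 CPM), and next in spot cluster 1 (71.6 CPM, with Krt6a at 138 CPM). Spot cluster 6 held only 65347 UMIs in all, 3 of them of Trp63, so its Dlk2 level rests on very few counts. Across spots, which share a section and differ in depth, the Spearman correlation of Pitx1 was 0.43 and 0.39 with Krt6a and 0.13 and 0.11 with Dlk2, in DES A and DES B. In the same order it was 0.39 and 0.32 with Krt13, 0.37 and 0.26 with Krt14, and 0.24 and 0.15 with Trp63. Sparse counts limit such values, since Dlk2 had 395 and 475 UMIs and Krt6a 4988 and 2187. Even Krt14 and Trp63 correlated at only 0.41 and 0.33, against 0.80 and 0.74 for Krt14 and Krt5. The values thus cannot rank these genes by how closely they go with Pitx1.

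Relative to Trp63 or to Krt14, keratins of other layers were more abundant in the sections than in cluster 11, but relative to Trp63 most basal keratins were too. Per Trp63 UMI, Krt13 had 6.01 and 6.32 UMIs in DES A and DES B but 0.222 in cluster 11 and 0.315 in cluster 8. Krt6a had 7.23 and 3.48 in the sections against 0.0188 and 0.0219 in the clusters. Pitx1 was likewise higher per Trp63 UMI in the sections, at 0.626 and 0.298, than in cluster 11, at 0.0672, while Dlk2 had 0.572 and 0.756 against 0.282. Scaled to 100 Krt14 UMIs the gap of Pitx1 narrowed, to 1.135 and 0.937 against 0.666, and Dlk2 was lower in the sections, at 1.04 and 2.38 against 2.79. Chemistry and dissociation differ between the assays together with the origin of the cells, and their parts cannot be told apart.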

How the data were processed

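Per the labels and the study's methods, the authors made raw UMI counts per gene and cell with Cell Ranger 3.0.1 and per gene and spot with Space Ranger 1.2.2 on mm10. They examined barcode swapping with DropletUtils, removed likely doublets with scran and deposited cluster numbers for epithelial cells and spots. The deposited counts of cells, spots, reads and genes were used as they stood. The deposited saturation fraction of each cell was not used.

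Cells were taken by cluster number. Of 4608 DES cells with a value in the separate DES clustering, 1 was in cluster 11 and 4 in cluster 8, and the remaining 4603 formed the non-basal group. A gene at 0 in a group was set to 3 UMIs over the group for a fold, and no fold was taken where both groups had at most 3. Ratios carry exact conditional binomial intervals. Thinning used 1 random draw. Cells in the metadata without counts numbered 350. Named genes were the 5 markers, the 15 highest and 15 lowest ratios per comparison at 50 CPM, genes 4-fold above both groups, leading list members and the 15 most variable genes; Pitx1 and the split by it were chosen after its values were seen. The members, the 27 gene lists and the tests were chosen with earlier results of these data known. The list of DES epithelial genes named by the study was chosen by the study on these samples. Of its 8 members at 10 CPM, Prap1 was at least 2-fold higher in cluster 11 than in cluster 8, and Olfm4 and En2 lower. Against non-basal cells Hif1a was higher, and Crh, Gstm7 and Prap1 lower. Of the other lists, interferon and antigen presentation genes had Irf1 and Ifit1 lower than in cluster 8 (2 of 16) and Irf7 lower than in non-basal cells (1 of 17). Antioxidant genes had Aldh3a1 lower than in cluster 8 (1 of 18) and, against non-basal cells, 1 higher and 3 lower of 18. WAP and serine protease inhibitor genes had 1 higher and 1 lower of 10 against cluster 8, and 4 higher and 1 lower of 11 against non-basal cells. S-phase genes were lower in 8 of 14 and G2/M genes in 8 of 9 against non-basal cells. No endothelial or pericyte marker reached 10 CPM.

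Sections held 9117099 to 12506177 UMIs over 1357 to 1834 spots. Their summed counts were tested with edgeR 4.0.16 (TMM, filterByExpr, quasi-likelihood) in R 4.3.3 and, as an alternative, DESeq2 1.42.0; the code was checked on simulated counts. Section letters B come from the labels and A from the study's text. The pairing of letters across CO and DES was checked: deviations of same-lettered sections from their group means had a Pearson r of -0.0249. Promoter letters were read from RefSeq on GRCm38.p6 and gene positions from GENCODE M21, which held 63 of 68 named genes. Nothing ties spots or cells to separate replicates, so the p-values measure the spread between 4 sections.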

Additional observations from a re-analysis of the deposited data

How the results depend on the processing

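Values between clusters come from 1 library, so the alternatives below change the processing and not the animals, and genes under 10 CPM in cluster 11 rest on about 40 UMIs or fewer. With genes of at least 50 CPM only, 16 were at least 2-fold higher and 102 lower in cluster 11 than in cluster 8, against 112 and 216; with no filter beyond 3 UMIs it was 837 and 746. Against non-basal cells the same filters gave 303 and 255, and 2509 and 1791, against 875 and 753. The basal cut was met by 93.0% of cluster 11 when 1 UMI of each gene was enough and by 53.3% after thinning to 3000 UMIs. The other 14 counts per comparison moved by less than 1.5 times. Ratios of single genes were less stable: 28 values against cluster 8 and 42 against non-basal cells left the counting interval of the main value, while 144 and 129 stayed within it. Without cells of high UMIs or with Ptprc, the ratio to cluster 8 turned to 0.729 for Prap1 and went from 0.338 to 0.146 for Olfm4, and the ratio to non-basal cells went from 1.79 to 0.58 for Olfm4, 0.102 to 0.0516 for Ltf, 0.333 to 0.218 for Krt8 and 872 to 1889 for Dlk2. Dlk2 was 441 times higher, and Crh went from 0.123 to 0.07, among cells with at least 5000 UMIs and at most 10% mitochondrial UMIs. The ratio of Atf3 to non-basal cells, 1.38, was 0.551 among cells with at least 5000 UMIs and at most 10% mitochondrial UMIs and 5.04 without the non-basal cells of DES cluster 9 (chosen after seeing the data, as were the fit without cells holding Pitx1 and the count without early, cytokine and cell cycle genes). The cause was not tested. In the sections DESeq2 called 822 genes higher and 969 lower, against 376 and 371 with edgeR. Leaving out 1 section, where the lone section left is assumed to vary like the other pair, gave 3 to 1311 higher and 0 to 1508 lower: 14 and 0 without DES A, 3 and 0 without DES B, 1311 and 1508 without CO A, and 1148 and 1188 without CO B. At an unadjusted p under 0.05 edgeR had 1632 higher and 1806 lower. With the section letter as a replicate block, 298 were higher and 229 lower; Pitx1 and Apoc1 lost their calls and Dlk2 gained one (adjusted p = 0.048). The letters share only a name, since same-lettered sections did not deviate together. Fos, with a log2 fold of -1.18 (adjusted p = 0.449), turned to 0.67 without CO A and was -1.96 without CO B.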
